A study of Homo sapiens with 4 samples.

Results

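The genes described here are 9 enzymes and carriers that bring long-chain fatty acids into mitochondria and break them down: CPT1A, CPT1C, SLC25A20, CPT2, ACADVL, ACADM, ACADS, HADHA and HADHB. They were taken as a list of named genes, with no threshold on their values, and each was matched by its gene name or, where the name was blank, its Ensembl ID. All 9 were found in both tables, among 30148 genes listed for UMUC3 and 17752 listed for SW780. UMUC3 and SW780 are human bladder cancer cell lines. In each line, a lentiviral SCD1 knockdown (shSCD1) was compared with shNT cells, to which the labels give the genotype WT, with 1 library in each of the 4 groups. UMUC3 cells grew in MEM and SW780 cells in DMEM, both with 10% fetal bovine serum, so the line and the medium cannot be told apart. The labels do not say how many cultures or hairpins stand behind a library. With 1 library per group no difference within a line has a replicate check. Intervals on levels and folds are 95% intervals and cover counting error only.

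Long-chain fatty acids cross the mitochondrial membranes as carnitine esters, and each turn of beta-oxidation then removes a short acetyl unit through dehydrogenation, hydration, a further dehydrogenation and thiolytic cleavage. The gate is CPT1 on the outer membrane, which malonyl-CoA, the building block of fatty acid synthesis, inhibits. Stearoyl-CoA desaturase, the product of SCD and the target of the knockdown, makes monounsaturated from saturated fatty acyl-CoA.

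Column headers number the libraries and do not name their groups. In each table the library numbered second was taken as shSCD1, going by the table's own name, and every direction below would turn round if a table's columns stood the other way. Read totals were 32540576 (UMUC3 shSCD1), 22818368 (UMUC3 shNT), 25549737 (SW780 shSCD1) and 34087871 (SW780 shNT). SCD was at 59.6 CPM (reads of a gene scaled to the depth of its library) in UMUC3 shSCD1 cells and 264 CPM in UMUC3 shNT cells, 4.44-fold lower (4.22 to 4.67). It was at 92.1 CPM in SW780 shSCD1 cells and 592 CPM in SW780 shNT cells, 6.43-fold lower (6.16 to 6.71). Transcripts of the mitochondrial genome took 6.02% of reads in UMUC3 shSCD1 and 4.23% in UMUC3 shNT, and 4.51% in SW780 shSCD1 and 4.33% in SW780 shNT. These shares cover 37 mitochondrial genes in UMUC3 and 13 in SW780, so they are not like for like between the lines. Of 6 epithelial markers, 6 passed 1 CPM in SW780, with summed levels of 9570 CPM in shSCD1 cells and 11527 CPM in shNT cells. In UMUC3 3 of the 6 passed, with sums of 249 CPM in shSCD1 cells and 524 CPM in shNT cells, and KRT19 had no read in either library. EPCAM and CDH1 were not found by name among the genes listed for UMUC3. Of 11 urothelial markers, 9 passed in SW780 (summed level 1073 CPM in shSCD1 and 1418 CPM in shNT cells) and 3 in UMUC3 (14.4 CPM in shSCD1 and 11.7 CPM in shNT cells), so the labelled bladder origin shows little in the UMUC3 markers. UPK3A and ELF3 were not found for UMUC3 either. Leukocyte, endothelial and fibroblast markers passed 1 CPM for 1 of 6, 0 of 4 and 2 of 7 genes in UMUC3, and for 1 of 6, 2 of 4 and 3 of 7 genes in SW780. Their highest sum was that of the fibroblast markers in SW780, 250 CPM in shSCD1 cells and 178 CPM in shNT cells. Most of it came from COL3A1, at 203.1 CPM in SW780 shSCD1 cells and 138.8 CPM in SW780 shNT cells. In the same order, LUM was at 39.96 and 35.88 CPM and COL1A1 at 6.693 and 2.904 CPM. COL1A2, DCN and PDGFRB had 0 reads in both SW780 libraries. The part of these shifts in the results below was not tested.

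The promoters of HADHB, CPT1A and ACADM are shown because HADHA and HADHB share theirs, and because CPT1A and ACADM are the 2 genes whose difference ran in opposite directions in the 2 lines. Each sequence is the stretch of 250 bases before the RefSeq start site on GRCh38.p14, written 5′ to 3′ on the strand of the gene. In HADHB (chr2:26244689-26244938, plus strand) capitals mark the bases that also lie in the promoter window of HADHA. In CPT1A (chr11:68844278-68844527, minus strand) no searched motif was found, so it has no capitals. In ACADM (chr1:75724459-75724708, plus strand) capitals mark the GC box GGGCGG on either strand, overlapping copies included.
HADHB: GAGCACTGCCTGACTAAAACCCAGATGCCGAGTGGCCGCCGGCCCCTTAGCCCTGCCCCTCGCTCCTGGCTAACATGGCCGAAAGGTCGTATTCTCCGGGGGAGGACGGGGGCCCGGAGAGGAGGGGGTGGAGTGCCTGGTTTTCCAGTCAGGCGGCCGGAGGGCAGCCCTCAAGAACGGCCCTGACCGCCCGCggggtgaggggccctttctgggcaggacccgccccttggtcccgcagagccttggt
CPT1A: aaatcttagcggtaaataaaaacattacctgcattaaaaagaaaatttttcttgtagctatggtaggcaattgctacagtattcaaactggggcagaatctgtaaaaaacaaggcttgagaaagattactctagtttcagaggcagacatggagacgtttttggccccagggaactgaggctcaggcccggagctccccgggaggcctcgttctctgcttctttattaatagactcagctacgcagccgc
ACADM: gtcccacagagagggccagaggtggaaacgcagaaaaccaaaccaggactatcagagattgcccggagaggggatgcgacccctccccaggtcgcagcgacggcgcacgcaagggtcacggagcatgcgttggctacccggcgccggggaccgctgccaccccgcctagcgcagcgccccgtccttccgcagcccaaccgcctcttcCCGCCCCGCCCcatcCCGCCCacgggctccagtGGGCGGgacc
HADHA and HADHB encode the alpha and beta subunits of one enzyme complex and are transcribed away from each other, with RefSeq start sites at 26244632 and 26244939 on chromosome 2 and 306 bases between them. Windows of 250 bases before and 50 after each start share 194 bases, of which 68.6% are G or C. Among 12 such windows for the 9 genes, the median G and C content was 65.3% (50 to 68.7%), against a median of 58.7% over 35116 promoter windows. The GC box GGGCGG stood on either strand in 9 of the 12 windows, belonging to 8 of the 9 genes, all except CPT1A, and in 45.0% of all windows. The only copy in the HADHA window lies in the 194 shared bases and is also counted for HADHB. The CCAAT box was found in 1 of the 12 windows, that of a CPT1C start, against 34.6% of all windows. The nuclear receptor motif AGGTCA, the longer TCAAGGTCA that estrogen-related receptors bind, and a pair of AGGTCA copies 1 base apart (DR1) were found in none of the 12 windows, on either strand. They stood in 13.8%, 0.353% and 0.0228% of all windows. CPT1A had a single window, at start site 68844277, with the lowest G and C content of the 12 (50%). Other starts of CPT1A were not searched, for the GC box or any other motif. A missing match says only that these letters are not in the windows. Gene positions given below come from GENCODE and differ from these RefSeq starts. By GENCODE, HADHB begins at 26243170, inside HADHA (26190635 to 26244726), and ACADM begins at 75724347, before the stretch shown.

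In UMUC3, the genes of fatty acid entry and breakdown sat slightly lower in the knockdown, led by the carnitine carrier SLC25A20, and the medium-chain dehydrogenase ACADM stood on the other side. In SW780 most of the 9 genes again had ratios slightly below 0, and CPT1A, the gate of the pathway, stood apart as 1.64-fold higher. The summed level of the 9 genes was 895 CPM in UMUC3 shSCD1 cells and 954 CPM in UMUC3 shNT cells, 1.07-fold lower (1.05 to 1.08). It was 908 CPM in SW780 shSCD1 cells and 995 CPM in SW780 shNT cells, 1.10-fold lower (1.08 to 1.11). In bulk RNA, fewer cells that express a gene and less RNA per cell cannot be told apart.

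**Figure D1:**
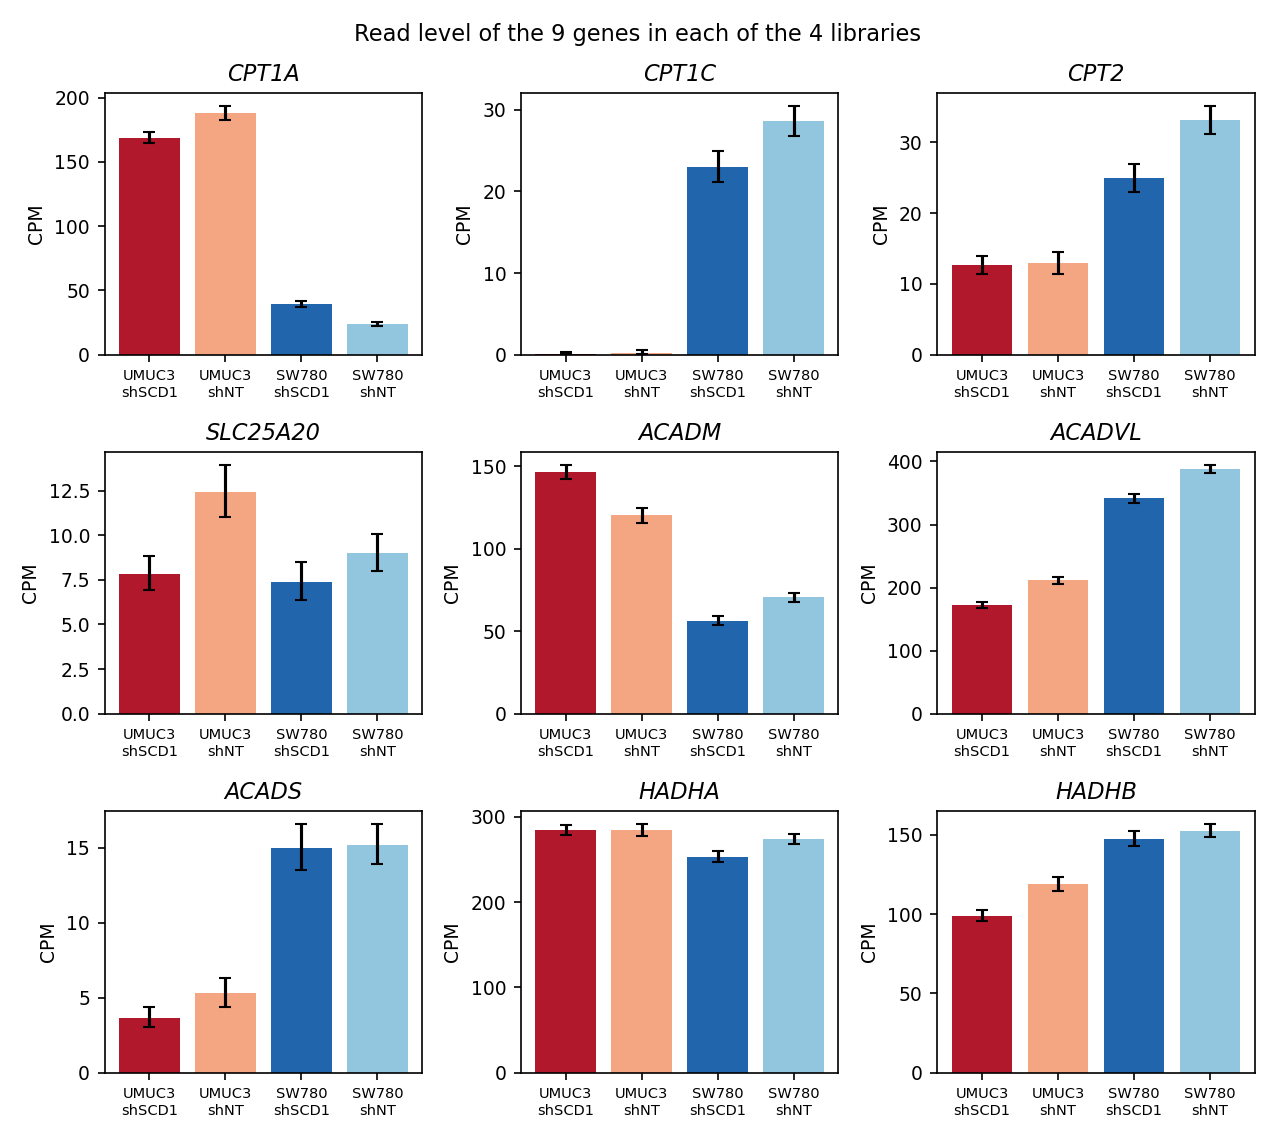
Read level (CPM, vertical axis from 0, own scale per gene) of each of the 9 genes in the 4 libraries, with exact Poisson 95% intervals as bars. CPT1A is at 168.7 and 187.7 CPM in UMUC3 shSCD1 and shNT and at 39.1 and 23.9 CPM in SW780 shSCD1 and shNT, while CPT1C is near 0 in UMUC3 only.

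CPT1A, on chromosome 11 (68754620 to 68844410, minus strand), encodes the liver-type carnitine palmitoyltransferase that joins long-chain acyl groups to carnitine. In SW780 it was at 39.1 CPM (1000 reads) in shSCD1 cells and 23.9 CPM (815 reads) in shNT cells, 1.64-fold higher (1.49 to 1.80). Its log2 ratio of 0.69 stood at percentile 96.2 among the SW780 genes with at least 1 CPM. In UMUC3 it was at 168.7 CPM in shSCD1 cells and 187.7 CPM in shNT cells, 1.11-fold lower (1.07 to 1.16). So the knockdown library was the higher of the pair in SW780 and the lower in UMUC3, and both SW780 libraries stayed far under both UMUC3 libraries.

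CPT1C, on chromosome 19 (49690898 to 49713731, plus strand), encodes a relative of CPT1A that is known from neurons, sits in the endoplasmic reticulum and has little transferase activity. In UMUC3 it had 4 reads in the shSCD1 library and 6 in the shNT library (0.123 and 0.263 CPM), and it did not pass 1 CPM there. In SW780 it was at 23.0 CPM (588 reads) in shSCD1 cells and 28.6 CPM (975 reads) in shNT cells, 1.24-fold lower (1.12 to 1.38). CPT1A and CPT1C therefore lay on opposite sides of 1 in SW780. Their ratio per kb of transcript was 0.946 in SW780 shSCD1 cells and 0.465 in SW780 shNT cells, 2.03-fold higher (1.77 to 2.34).

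The make-up of the CPT1 family differed between the lines more than between the libraries of a line. Counting CPT1A, CPT1C and the muscle-type CPT1B per kb of transcript, CPT1A made up 94.7% in UMUC3 shSCD1 cells and 96.7% in UMUC3 shNT cells. In SW780, CPT1A made up 38.0% in shSCD1 cells and 24.2% in shNT cells, and CPT1C 40.2% in shSCD1 cells and 52.0% in shNT cells. The remaining share belonged to CPT1B, 21.9% in SW780 shSCD1 cells and 23.8% in SW780 shNT cells. CPT1B is uncertain, because 66.4% of its exon sequence overlaps exons of another gene.

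SLC25A20, on chromosome 3 (48856931 to 48898993, minus strand), encodes the translocase that swaps acylcarnitine for free carnitine across the inner membrane. In UMUC3 it was at 7.84 CPM (255 reads) in shSCD1 cells and 12.4 CPM (283 reads) in shNT cells, 1.58-fold lower (1.33 to 1.88). In SW780 it was at 7.36 CPM (188 reads) in shSCD1 cells and 8.98 CPM (306 reads) in shNT cells, 1.22-fold lower (1.01 to 1.47). The gene was the lower of each pair in both lines, with few reads behind every value. Its log2 ratio in UMUC3, −0.60, lay just past the 1.5-fold size rule, and with transcripts of the mitochondrial genome left out of the totals it was −0.58 and lay just short of it.

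CPT2, on chromosome 1 (53196429 to 53214197, plus strand), encodes the inner-membrane transferase that hands the acyl group back to coenzyme A. In SW780 it was at 24.9 CPM in shSCD1 cells and 33.1 CPM in shNT cells, 1.33-fold lower (1.20 to 1.47), the lowest log2 ratio of the 9 genes in that line (−0.40). In UMUC3 it was at 12.6 CPM in shSCD1 cells and 12.9 CPM in shNT cells, and the interval of its fold held 1 (0.842 to 1.14). About 12.0% of its exon sequence overlaps other genes on the other strand, and the sources used here do not say whether counting used strand. Set against CPT2, CPT1A per kb stood at 0.928 in SW780 shSCD1 cells and 0.427 in SW780 shNT cells, 2.17-fold higher (1.90 to 2.49). In UMUC3 that ratio was 7.90 in shSCD1 cells and 8.62 in shNT cells, and the interval of the change (1.09-fold lower, 0.934 to 1.27) held 1.

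The acyl-CoA dehydrogenases open each turn of the cycle, and the 3 measured here differ in the chain length they take. ACADVL, the very-long-chain enzyme on chromosome 17 (7217125 to 7225273, plus strand), was at 172.6 CPM in UMUC3 shSCD1 cells and 211.5 CPM in UMUC3 shNT cells, 1.23-fold lower (1.18 to 1.27). In SW780 it was at 341.4 CPM in shSCD1 cells and 387.8 CPM in shNT cells, 1.14-fold lower (1.11 to 1.17). ACADVL and SLC25A20 were the only genes of the 9 whose counting interval lay below 1 in both lines. The share of all genes with an interval below 1 in both lines was not counted, so this is read as no result about the 9 genes. CPT1C, under 1 CPM in UMUC3, had too few reads there to meet the rule at a small fold. ACADM, the medium-chain enzyme on chromosome 1 (75724347 to 75787575, plus strand), was at 146.7 CPM in UMUC3 shSCD1 cells and 120.3 CPM in UMUC3 shNT cells, 1.22-fold higher (1.16 to 1.28). In SW780 ACADM was at 56.6 CPM in shSCD1 cells and 70.6 CPM in shNT cells, 1.25-fold lower (1.17 to 1.33). ACADM thus went the other way in each line from CPT1A. ACADS, the short-chain enzyme on chromosome 12 (120725735 to 120740008, plus strand), was at 3.66 CPM (119 reads) in UMUC3 shSCD1 cells and 5.30 CPM (121 reads) in UMUC3 shNT cells, 1.45-fold lower (1.12 to 1.88). In SW780 ACADS was at 15.0 CPM in shSCD1 cells and 15.2 CPM in shNT cells, with a fold that held 1 (0.862 to 1.13).

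The balance among the dehydrogenases differed beyond counting error in both lines, and in opposite directions. ACADVL over ACADM, per kb of transcript, was 1.33 in UMUC3 shSCD1 cells and 1.98 in UMUC3 shNT cells, 1.49-fold lower (1.41 to 1.59). ACADM over ACADS was 29.9 in UMUC3 shSCD1 cells and 16.9 in UMUC3 shNT cells, 1.77-fold higher (1.37 to 2.29). In SW780, ACADVL over ACADM being 1.10-fold higher (1.02 to 1.18) and ACADM over ACADS 1.23-fold lower (1.06 to 1.43) in shSCD1 cells.

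HADHA and HADHB form the mitochondrial trifunctional protein, which carries out the last 3 steps of the cycle on long chains: HADHA holds the hydratase and the hydroxyacyl-CoA dehydrogenase, HADHB the thiolase. HADHA (chromosome 2, 26190635 to 26244726, minus strand) was at 283.9 CPM in UMUC3 shSCD1 cells and 284.5 CPM in UMUC3 shNT cells, with a fold that held 1 (0.966 to 1.03) and a log2 ratio that turned to 0.02 with mitochondrial transcripts left out of the totals. HADHB (chromosome 2, 26243170 to 26290468, plus strand) was at 99.0 CPM in UMUC3 shSCD1 cells and 119.1 CPM in UMUC3 shNT cells, 1.20-fold lower (1.14 to 1.27). In UMUC3 the partners with the shared promoter bases therefore parted: HADHA over HADHB per kb was 2.02 in shSCD1 cells and 1.68 in shNT cells, 1.20-fold higher (1.13 to 1.27). In SW780 HADHA was at 253.2 CPM in shSCD1 cells and 273.9 CPM in shNT cells, 1.08-fold lower (1.05 to 1.12). HADHB in SW780 was at 147.6 CPM in shSCD1 cells and 152.7 CPM in shNT cells, with a fold that held 1 (0.927 to 1.01). Their ratio in SW780 was 1.21 in shSCD1 cells and 1.26 in shNT cells, and the interval of the change (1.05-fold lower, 0.992 to 1.10) held 1.

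**Figure D2:**
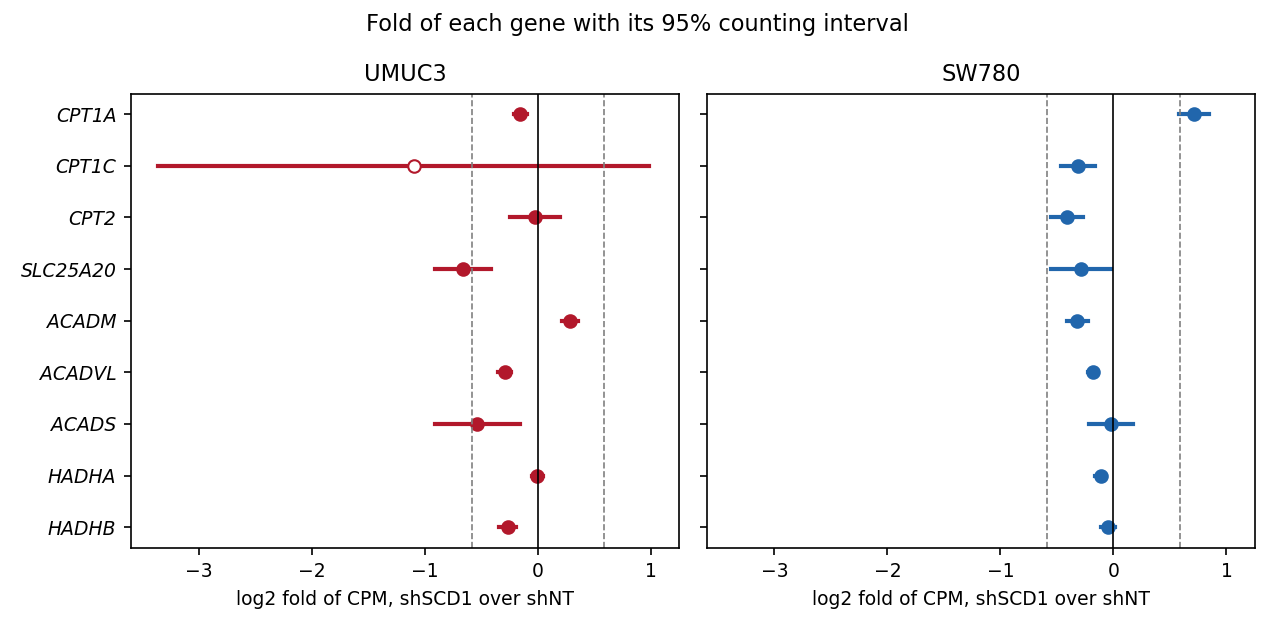
Fold of CPM in shSCD1 over shNT on a log2 axis for the 9 genes, in UMUC3 (left) and SW780 (right), with 95% counting intervals as bars and dashed lines at 1.5-fold; the open point marks the gene under 1 CPM. SLC25A20 in UMUC3 lies left of 1.5-fold and CPT1A in SW780 right of it, while ACADM lies right of 0 in UMUC3 and left of it in SW780.

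By the size rules (log2 of CPM + 1, at least 1 CPM in either library), 1 of 8 genes, SLC25A20, was lower past 1.5-fold in UMUC3, where 6.86% of all 14063 genes were. None was higher past 1.5-fold, against 10.1% of all genes. None passed 2-fold in UMUC3, against 2.18% of all genes lower and 2.47% higher. In SW780, 0 of 9 were lower past 1.5-fold, against 3.7% of all 12880 genes, and 1 of 9, CPT1A, was higher, against 5.05%. None passed 2-fold in SW780, against 1.06% of all genes lower and 1.48% higher. A single gene in 8 or 9 is read as no result about the group beside such shares. The counting interval lay below 1 for 5 of 8 genes in UMUC3 (CPT1A, SLC25A20, ACADVL, ACADS and HADHB), against 29.6% of all genes, and above 1 for ACADM alone, against 35.9%. It lay below 1 for 6 of 9 genes in SW780 (CPT1C, CPT2, SLC25A20, ACADM, ACADVL and HADHA), against 29.8% of all genes, and above 1 for CPT1A alone, against 28%. A deeply read gene passes this rule at a small fold, and the median level of the 8 genes in UMUC3 was 121 CPM against 22.9 CPM over all genes kept. In SW780 those medians were 31.5 CPM for the 9 genes and 34.4 CPM for all genes kept.

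The median log2 ratio of the 8 genes in UMUC3 was −0.21 (range −0.60 to 0.28), beside 0.04 over all genes kept there. In SW780 the median of the 9 genes was −0.18 (range −0.40 to 0.69), beside −0.01 over all genes kept. The ratio was below 0 for 7 of 8 genes in UMUC3 and 8 of 9 in SW780, against 45.7% and 51.5% of all genes, HADHA in UMUC3 lying so near 0 that its side depends on the scaling.

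**Figure D3:**
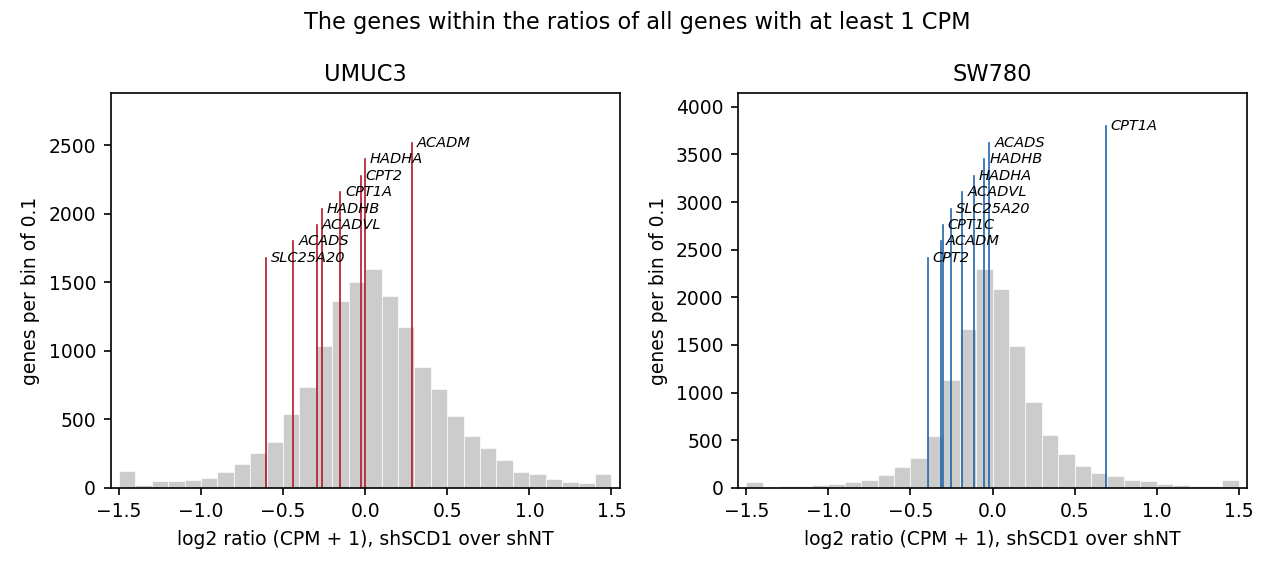
Histogram of the log2 ratio of CPM + 1, shSCD1 over shNT, for all genes with at least 1 CPM (genes per bin of 0.1; the end bins hold everything beyond), with a line at each of the 8 genes in UMUC3 and the 9 in SW780; line heights only separate the names. Most lines stand left of 0, SLC25A20 at −0.60 in UMUC3 and CPT1A at 0.69 in SW780 being the farthest out.

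With the 2 lines as the repeats of the knockdown and cell line as a block, edgeR's quasi-likelihood test with Benjamini-Hochberg adjustment called 0% of 13554 genes at an adjusted p under 0.05. It had 418 genes at an unadjusted p under 0.05 and a smallest adjusted p of 0.0643, and SCD itself had an adjusted p of 0.722, so this fit with 1 residual degree of freedom calls little. DESeq2 on the same reads called 26 of 15241 genes, SCD among them (adjusted p = 8.40e-23). None of the 9 genes was called by either tool, their adjusted p being 0.986 in edgeR for 8 of them, 1.00 in edgeR for ACADM and 1.00 in DESeq2 for all 9. The fitted log2 fold changes were negative for 8 genes, the lowest −0.48 for SLC25A20 and −0.47 for CPT1C, and positive for CPT1A at 0.26. ACADM, at −0.02, averaged a higher value in UMUC3 with a lower one in SW780. A p above the threshold does not show that these genes did not differ.

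Per kb of their longest coding transcript, HADHA, ACADVL, HADHB and ACADM stood above the carnitine shuttle genes in all 4 libraries, while ACADS did not. In UMUC3 shSCD1 cells the order of levels was HADHA (93.5 CPM per kb), ACADVL (74.3), ACADM (56.0), HADHB (46.2), CPT1A (32.2), SLC25A20 (4.17), CPT2 (4.08), ACADS (1.88) and CPT1C (0.0422). SLC25A20 and CPT2 were the only neighbours in it whose counting intervals overlapped. In UMUC3 shNT cells HADHB (55.6 CPM per kb) came before ACADM (45.9), and only HADHA (93.7) and ACADVL (91.0) overlapped. In SW780 shSCD1 cells the order began with ACADVL (147 CPM per kb), HADHA (83.4), HADHB (68.9) and ACADM (21.6). CPT2 (8.06), CPT1C (7.91), ACADS (7.69) and CPT1A (7.48) followed there without parting from their neighbours, and SLC25A20 (3.92) was last. In SW780 shNT cells CPT1A (4.57 CPM per kb) was last, with an interval overlapping that of SLC25A20 (4.78), and CPT2 (10.7) and CPT1C (9.83) overlapped too. Over merged exons in place of the longest coding transcript, CPT2 took rank 8 in both UMUC3 libraries and rank 9 in both SW780 libraries. On that length CPT1A came before HADHB in both UMUC3 libraries and before ACADM too in UMUC3 shNT cells. So these places, and the lead of HADHB and ACADM over CPT1A in UMUC3, depend on the length used.

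**Figure D4:**
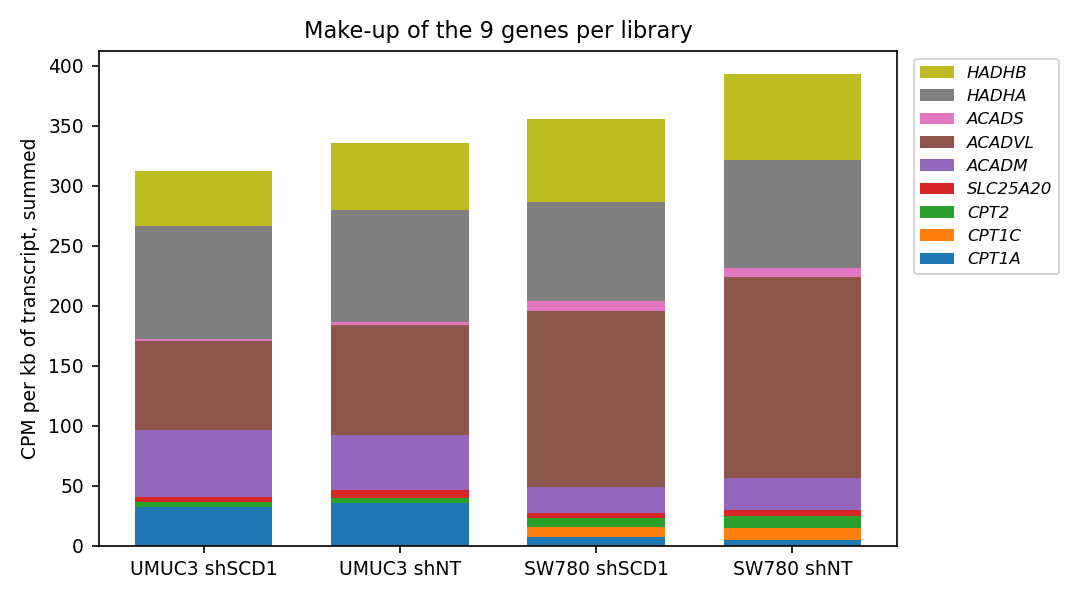
Stacked levels of the 9 genes (CPM per kb of transcript, vertical axis from 0) in each of the 4 libraries. The totals are 312 and 336 in UMUC3 shSCD1 and shNT and 356 and 393 in SW780 shSCD1 and shNT, and ACADVL fills the largest block in SW780 while CPT1A is broad only in UMUC3.

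Across the lines, whose tables were scaled separately, levels are given as a description. CPT1A in UMUC3 was 4.31 times its SW780 level among shSCD1 cells and 7.85 times among shNT cells. ACADM in UMUC3 was 2.59 times its SW780 level among shSCD1 cells and 1.70 times among shNT cells. The other way, SW780 held 187 times the UMUC3 level of CPT1C among shSCD1 cells (72.7 to 689) and 109 times among shNT cells (49.8 to 297). SW780 also held more ACADS (4.10 times among shSCD1 cells, 2.87 among shNT cells), CPT2 (1.97 and 2.57 times in the same order), ACADVL (1.98 and 1.83) and HADHB (1.49 and 1.28). HADHA was nearly level between the lines, at 1.12 times in UMUC3 among shSCD1 cells and 1.04 times among shNT cells.

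Among 9137 genes with at least 5 CPM in every library, those nearest in pattern were taken for the member with the largest ratio in each line, by Euclidean distance between log2(CPM + 1) values in the 4 libraries, each gene centred on its own mean. For SLC25A20 they were AIFM1, ALDH9A1 and TCEAL1 (distances 0.0588, 0.0764 and 0.0834). For CPT1A they were LIX1L, ACAA2 and RIN2 (distances 0.143, 0.243 and 0.286). ACAA2 encodes the medium-chain thiolase of the same cycle and was at 98.7 and 103 CPM in UMUC3 shSCD1 and shNT cells and at 25.05 and 16.0 CPM in SW780 shSCD1 and shNT cells. ALDH9A1 belongs to carnitine synthesis and was at 74.0 and 120 CPM in UMUC3 shSCD1 and shNT cells and at 69.8 and 85.6 CPM in SW780 shSCD1 and shNT cells. Likeness over 4 libraries describes these libraries only.

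Other genes around beta-oxidation, most of them mitochondrial, were taken as a list wider than the enzymes of the cycle. CBR4 and NUDT7 on it are not enzymes of the cycle. Of this wider list, 1 of 27 was lower past 1.5-fold in UMUC3, where 6.86% of all genes were. It was the hydratase ECHS1, at 59.1 CPM in shSCD1 cells and 96.1 CPM in shNT cells (1.63-fold lower, 1.53 to 1.73). There 3 of 27 were higher past 1.5-fold, against 10.1% of all genes: CBR4 (1.55-fold), NUDT7 (2.07-fold) and ACAD11 (1.51-fold), of which NUDT7 and ACAD11 are uncertain because 32.2% and 83.8% of their exon sequence overlaps other genes. In SW780, 0 of 28 were lower, against 3.7% of all genes, and 3 of 28 higher, against 5.05%. These were ACAA2 (1.57-fold, 1.40 to 1.76), ACOT2, which lay under 5 CPM, and HSD17B10, a dehydrogenase of short and branched chains. HSD17B10 was at 54.2 CPM in SW780 shSCD1 cells and 21.0 CPM in SW780 shNT cells, 2.58-fold higher (2.36 to 2.83). The medians of this list were −0.06 in UMUC3 and −0.02 in SW780, beside 0.04 and −0.01 over all genes kept.

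Peroxisomes shorten the longest and branched fatty acids with their own enzymes. Of 18 such genes kept in UMUC3, 3 were lower past 1.5-fold, against 6.86% of all genes, among them HACL1 (1.55-fold) and PEX7 (1.70-fold). Of the 18, 1 was higher, against 10.1% of all genes. It was ACOX2, an oxidase of branched chains, at 11.2 CPM in UMUC3 shSCD1 cells and 4.78 CPM in UMUC3 shNT cells (2.35-fold, 1.89 to 2.94). In SW780 0 of 17 passed 1.5-fold in either direction, against 3.7% of all genes lower and 5.05% higher, and the largest difference was CROT, the carnitine octanoyltransferase, at 221 CPM in shSCD1 cells and 319 CPM in shNT cells (1.45-fold lower, 1.40 to 1.49). The medians were −0.23 in UMUC3 and −0.17 in SW780. Of the genes of carnitine supply, 2 of 7 were lower past 1.5-fold in UMUC3, against 6.86% of all genes: the transporter SLC22A4 (1.91-fold) and ALDH9A1 (1.62-fold). None was higher there, against 10.1% of all genes, and the list median was −0.07. In SW780 0 of 6 passed in either direction, against 3.7% of all genes lower and 5.05% higher. ALDH9A1 was 1.23-fold lower in SW780, and the list median was 0.04.

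Of 18 regulators of the pathway kept in UMUC3, 2 were lower past 1.5-fold and 2 higher, against 6.86% and 10.1% of all genes. PPARA, the receptor that drives fatty acid oxidation genes in liver, was at 9.59 CPM in UMUC3 shSCD1 cells and 20.2 CPM in UMUC3 shNT cells, 2.10-fold lower (1.82 to 2.44). ESRRA, an orphan receptor of mitochondrial genes, was at 13.5 CPM in UMUC3 shSCD1 cells and 24.3 CPM in UMUC3 shNT cells, 1.80-fold lower (1.58 to 2.04). The kinase subunit PRKAA2 (1.60-fold) and TFAM (1.52-fold), which maintains mitochondrial DNA, were the higher ones in UMUC3. In SW780 2 of 19 were lower, against 3.7% of all genes, and 0 were higher, against 5.05%. They were PPARGC1B, a coactivator of ESRRA, at 10.0 CPM in shSCD1 cells and 22.5 CPM in shNT cells (2.24-fold, 1.94 to 2.59), and TFAM (1.72-fold, 1.61 to 1.85). PPARA in SW780 was at 29.5 CPM in shSCD1 cells and 31.2 CPM in shNT cells. List medians were 0.12 in UMUC3 and −0.08 in SW780.

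Of all genes, 6.86% were lower and 10.1% higher past 1.5-fold in UMUC3, against 3.7% and 5.05% in SW780. Among ketone body enzymes 0 of 5 passed 1.5-fold in either line, with medians of −0.14 in UMUC3 and −0.03 in SW780. Beside such shares, a count of 0 in so few genes is read as no result about a list. Among other PPARA targets 0 of 4 passed in UMUC3, where the lipid droplet coat PLIN2 was at 25.8 CPM in shSCD1 cells and 29.7 CPM in shNT cells and the median was −0.12. In SW780 1 of 5, VNN1, was higher at about 1 CPM, against 5.05% of all genes, the median was 0.19, and TXNIP, a thioredoxin-binding protein, was at 414 CPM in shSCD1 cells and 309 CPM in shNT cells (1.34-fold higher, 1.30 to 1.38).

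**Figure D5:**
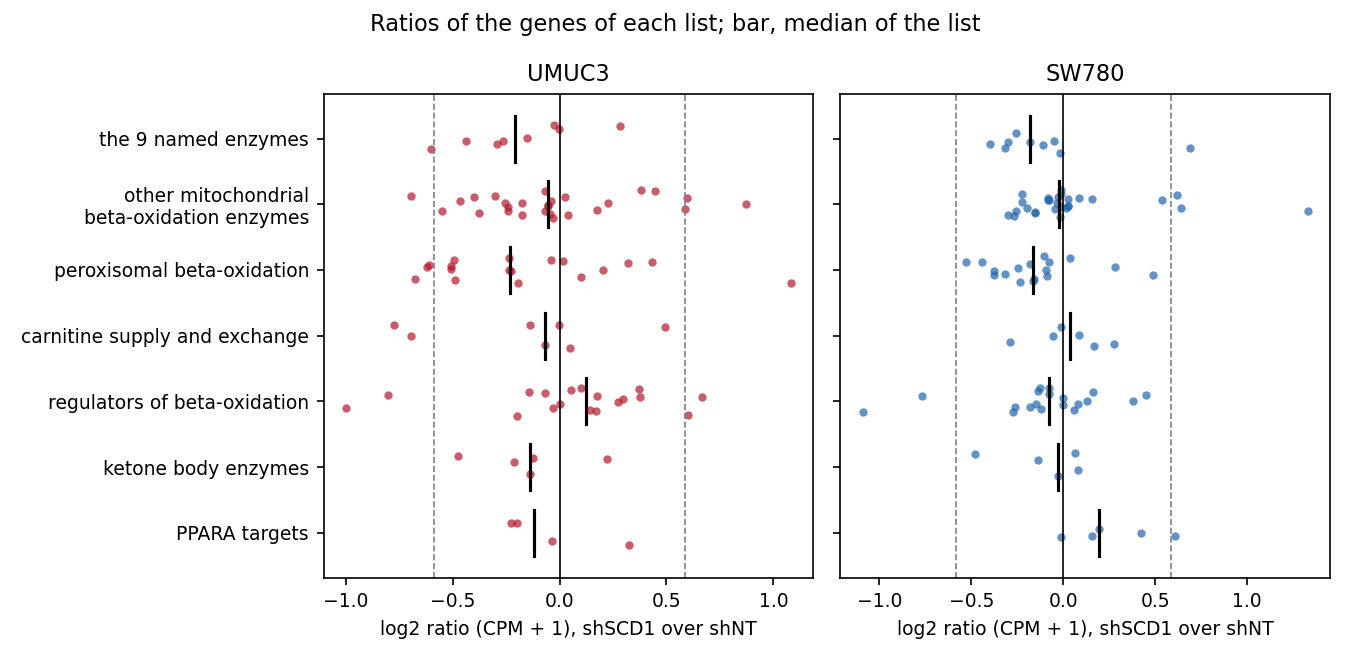
Log2 ratio of CPM + 1, shSCD1 over shNT, for each gene with at least 1 CPM in 7 lists, in UMUC3 (left) and SW780 (right); points are genes, black bars list medians and dashed lines 1.5-fold. The 9 named enzymes and the peroxisomal genes have medians below 0 in both lines, −0.21 and −0.23 in UMUC3 and −0.18 and −0.17 in SW780. The list labelled other mitochondrial beta-oxidation enzymes also holds genes that are not enzymes of the cycle.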

How the data were processed

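RNA of 4 libraries (TruSeq kit, NovaSeq) was sequenced, per the labels' protocols, and aligned to hg38, per the submitters' processing notes; the sources used here do not give the aligner, the counter or whether strand was used. The authors deposited 1 table per line. Per the file headers it holds a log2 fold change, a GFOLD value (that log2 fold change shrunk towards 0) and an empirical FDR, a q-value at 1 throughout, which was left out.

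The deposited signal columns carry the heading RPKM but are read counts scaled to 1 total, with no gene length in them. Each column rises in even steps, and dividing by its step gave whole reads (to 0.1 reads) for 100% of values of at most 20 reads and at least 99.9% of all values. A read was worth 1.54 units in UMUC3 shSCD1, 2.19 in UMUC3 shNT, 1.96 in SW780 shSCD1 and 1.47 in SW780 shNT.

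Levels are CPM with exact Poisson 95% intervals, folds carry exact Clopper-Pearson 95% intervals, and PCR reads are not independent molecules. Size rules of 1.5-fold and 2-fold used log2(CPM + 1) among genes reaching 1 CPM in at least 1 of the libraries of the line, a scale that understates the change of low genes. Ratios per kb used the longest coding transcript of the GRCh38 GENCODE annotation, which also gave gene positions and exon overlaps. The 15415 genes in both tables entered edgeR 4.0.16 (R 4.3.3), with TMM scaling and cell line as block, and DESeq2 1.42.0 as alternative. The edgeR fit was tested on simulated data, and the DESeq2 fit was not. Promoters came from RefSeq.

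The 9 genes and all lists were chosen with earlier results of these data known. Every member is named; from each list, genes past 1.5-fold with at least 5 CPM are named, or else the gene with the largest ratio, and genes outside this rule (CPT1B, ACOT2, VNN1, and ACAA2 in UMUC3 and PPARA in SW780) were named after their values were seen. Alternatives changed the pseudocount, scaling, filter, tool and length. Some genes that the rule names are not reported here.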

Additional observations from a re-analysis of the deposited data

Results flagged for a closer look

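For 6 genes the knockdown difference ran in opposite directions in the 2 lines, with a counting interval that left out 1 in each line; with 1 library per group the difference between lines was not tested. Given as the log2 fold in SW780 minus that in UMUC3, it was 0.87 (0.72 to 1.01) for CPT1A and −0.61 (−0.72 to −0.49) for ACADM, which are 2 of the 9 genes. Among 19 named genes of the other lists it was −0.95 for CBR4, 0.41 for PLIN2, −1.56 for PPARGC1B and −1.39 for TFAM. Those 19 were named by the size of their ratios, and the share of all genes that meet this rule was not counted. Without that share, these counts are read as no result about the 9 genes or the lists. Taken line by line, the interval lay below 1 for 29.6% of all genes kept in UMUC3 and 29.8% in SW780. It lay above 1 for 35.9% and 28% in the same order.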

How the results depend on the processing

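The log2 ratio of HADHA in UMUC3, which is close to 0, was 0.02 with totals that leave out mitochondrial transcripts, and no other ratio of the 9 genes changed sign under the alternatives run. Of 171 such values 166 moved by less than their counting interval. Among the 166 are values under changed filters, which cannot move a gene's own ratio, so this count overstates the stability. The 5 that moved further were all the authors' deposited log2 fold changes in UMUC3, −0.24 for CPT1A, 0.20 for ACADM, −0.37 for ACADVL, −0.08 for HADHA and −0.35 for HADHB, and that table's scaling lies −0.08 from the plain ratio over all genes. The count past 1.5-fold in UMUC3, 1 as reported, was 0 with a pseudocount of 5 CPM and 0 with totals that leave out mitochondrial transcripts, because SLC25A20 lies near the rule, and 2 in the authors' deposited table, where ACADS passed too (−0.62). Calls in the fit over both lines, 0 as reported, were 1 with no filter beyond 1 read and 26 with DESeq2; the cause was not tested. No scaling moved the median of all genes by over 0.1. Counting intervals have no value under other pseudocounts or in the authors' table. The labels give no replicate numbers to pair by; the fit over both lines pairs shSCD1 with shNT by cell line. Leaving out a library leaves its line without a comparison. Depth limits SLC25A20 and ACADS, with at most 306 and 518 reads in any library, and CPT1C in UMUC3.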
